A study of Mus musculus with 6 samples.

Results

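The Ly6 family examined here comprises *Ly6a*, *Ly6a2*, *Ly6c1*, *Ly6c2*, *Ly6e* and *Ly6i*. The members were the rows of the deposited count matrix whose symbol was one of these names, which gave 6 of 19309 genes. They had been picked for how they differed between the genotypes in the same libraries. The difference between sEH-/- and wild-type macrophages is therefore given for each of them as a description, without a p-value.

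Ly6 genes encode small cell surface proteins with a disulfide-bonded fold, the LU domain, which are held on the outer leaflet of the membrane by a glycosylphosphatidylinositol (GPI) anchor. Several are induced by interferons. In the mouse, *Ly6a* encodes Sca-1, the antigen used to isolate hematopoietic stem cells. *Ly6c1* and *Ly6c2* encode the Ly6C antigen that separates inflammatory from patrolling monocytes, and *Ly6e* is known for its part in restricting or helping the entry of viruses. *Ly6i* encodes another GPI-anchored protein of the same group. *Ly6a2* was listed as a transcribed unprocessed pseudogene by the deposited table and as a protein-coding gene by RefSeq.

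RNA was sequenced from bone-marrow-derived macrophages of 3 sEH-/- mice, which lack *Ephx2*, the gene of the soluble epoxide hydrolase (sEH), in all tissues and throughout life, and of 3 wild-type mice. The methods describe age- and strain-matched littermates of 8 to 10 weeks, mostly females. All 6 cultures were grown for 7 days with M-CSF together with GM-CSF, activated with IFN-γ and LPS to the M1 state, and repolarized to the M2c state with TGF-β1, so that both genotypes had been exposed to interferon. The design text gives 24 h before and 48 h after TGF-β1 was added on top of the first stimuli, whereas the methods give 12 h followed by 24 h or 48 h. No unstimulated culture was analysed here. Since all cells had received the same stimuli, nothing below measures induction by interferon or by TGF-β1.

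Library totals ranged from 4400197 to 6096440 counts. The check of the labels by *Ephx2* gave 4, 2 and 1 counts for sEH-/- against 26, 49 and 57 for wild-type libraries, which matched them. All 15 macrophage markers of a fixed list, such as *Csf1r*, the receptor for M-CSF, had enough counts to be tested. The 4 B and plasma cell markers with a row in the matrix were under the filter, with a summed level of at most 1.61 CPM, the count scaled by library size with edgeR's TMM factors. In bulk RNA, a change in the share of one kind of cell and a change of RNA per cell cannot be told apart.

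The 6 genes lie within one stretch of mm10 chromosome 15. *Ly6e* (ENSMUSG00000022587, 74955051 to 74959905) is on the plus strand. The others are on the minus strand, in the order *Ly6i* (ENSMUSG00000022586, 74979534 to 74983430), *Ly6a* (ENSMUSG00000075602, 74994877 to 74998031), *Ly6c1* (ENSMUSG00000079018, 75044018 to 75048830), *Ly6c2* (ENSMUSG00000022584, 75108158 to 75111970) and *Ly6a2* (ENSMUSG00000102051, 75131377 to 75135128). Their sequences are related, and reads that fit more than one place had been removed. Of the 50-base stretches of the annotated transcripts, 32.8% in *Ly6c1*, 19.0% in *Ly6a*, 14.4% in *Ly6c2*, 9.58% in *Ly6a2* and 4.76% in *Ly6i* also occurred in a transcript of another gene, and 0% in *Ly6e*. The pair that shared most was *Ly6c1* and *Ly6c2*, with 21.5% of *Ly6c1* and 13.9% of *Ly6c2*. The counts of *Ly6a*, *Ly6a2*, *Ly6c1*, *Ly6c2* and *Ly6i* therefore came from the parts of each gene that can be told apart and are uncertain to that extent.

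The RefSeq promoter sequences used here, on GRCm38.p6, matched *Ly6c2*, *Ly6a2* and *Ly6c1*, which are printed, and not *Ly6a*, *Ly6e* or *Ly6i*. Of these 3 of the 6 genes, *Ly6c2* and *Ly6a2* had the largest differences between the genotypes, and *Ly6c1* had almost no counts. Each sequence is the 250 bases before the most upstream start, 5′ to 3′ on the minus strand, at chr15:75111972-75112221 for *Ly6c2*, chr15:75135129-75135378 for *Ly6a2* and chr15:75048838-75049087 for *Ly6c1*. Capitals mark runs of at least 12 bases that occurred in all 3 sequences.
Ly6c2: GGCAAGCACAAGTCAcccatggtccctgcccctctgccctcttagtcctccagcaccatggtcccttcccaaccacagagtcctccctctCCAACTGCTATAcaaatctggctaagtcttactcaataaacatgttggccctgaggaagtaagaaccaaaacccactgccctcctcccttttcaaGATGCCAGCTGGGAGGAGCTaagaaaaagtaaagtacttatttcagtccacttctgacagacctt
Ly6a2: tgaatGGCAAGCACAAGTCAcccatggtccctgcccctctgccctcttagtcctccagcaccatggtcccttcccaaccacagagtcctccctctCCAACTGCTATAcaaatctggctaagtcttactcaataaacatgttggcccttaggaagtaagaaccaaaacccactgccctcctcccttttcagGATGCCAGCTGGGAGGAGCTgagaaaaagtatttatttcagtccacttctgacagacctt
Ly6c1: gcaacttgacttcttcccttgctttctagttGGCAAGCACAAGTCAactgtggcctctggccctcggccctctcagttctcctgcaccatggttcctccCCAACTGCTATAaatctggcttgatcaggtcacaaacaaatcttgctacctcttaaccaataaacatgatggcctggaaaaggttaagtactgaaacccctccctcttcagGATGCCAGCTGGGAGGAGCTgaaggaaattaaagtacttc

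In a global alignment, *Ly6c2* and *Ly6a2* were identical at 242 of 255 columns (94.9%). *Ly6c1* was identical to *Ly6c2* at 59.9% and to *Ly6a2* at 62.2% of the columns. The longest run shared by all 3, GATGCCAGCTGGGAGGAGCT, began 65, 60 and 40 bases before the start of *Ly6c2*, *Ly6a2* and *Ly6c1*, respectively. Both strands were searched for a few motifs of factors downstream of the stimuli and for one of PU.1. Neither the core of the interferon response element ISRE (GAAANNGAA, in 7.13% of 32841 promoter windows of the same length) nor the palindromic SMAD element (GTCTAGAC, in 0.167%) occurred in these 3 windows. The short SMAD box CAGAC, found in 42.2% of all windows, occurred once in *Ly6c2* and once in *Ly6a2*, 8 bases before the start of each, and not in *Ly6c1*. GAGGAAGT, a form of the site of the myeloid factor PU.1 that 2.44% of windows contained, occurred in *Ly6c2* alone of the 3, 108 bases before its start. The aligned bases were TAGGAAGT in *Ly6a2* and GAAAAGGT in *Ly6c1*. These matches of letters do not show binding, and motifs outside the windows were not searched.

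Levels were first compared between the genes in wild-type cells, as CPM per kilobase of exon. *Ly6a* had the highest level, with 108, 85.5 and 89.7 CPM per kb in the 3 libraries (mean 94.3 ± 11.8 SD, n = 3), more than 99.3% of the tested genes. *Ly6e* followed with 60.5, 46.6 and 52.6 CPM per kb (53.2 ± 6.96) and *Ly6i* with 38.0, 34.7 and 38.1 (36.9 ± 1.89), higher than 94.9% and 88.3% of genes. *Ly6c2* reached 7.29, 5.38 and 6.99 CPM per kb (6.55 ± 1.03), which was higher than 37.5% of genes. Per base of exon, Sca-1 and Ly6e transcripts were thus among the abundant messages of these macrophages, and that of the monocyte antigen Ly6C was not. *Ly6a2* had 1.37, 0.812 and 1.12 CPM per kb (1.10 ± 0.28), and *Ly6c1* had 0.393, 0.0966 and 0.107 (0.199 ± 0.168). No neighbours in this order overlapped between their 3 wild-type libraries. With the longest coding transcript in place of all exonic bases, *Ly6c2* was at 21.8, *Ly6e* at 88.3, *Ly6a* at 118.9 and *Ly6c1* at 0.395 CPM per kb, and the order of the 6 genes was the same. The share of genes below each member was not computed with this length, so that the low rank of *Ly6c2* holds for exonic bases only. In sEH-/- cells the levels of *Ly6e* (64.0 ± 7.99 CPM per kb) and *Ly6i* (59.0 ± 11.9) overlapped.

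**Figure D1:**
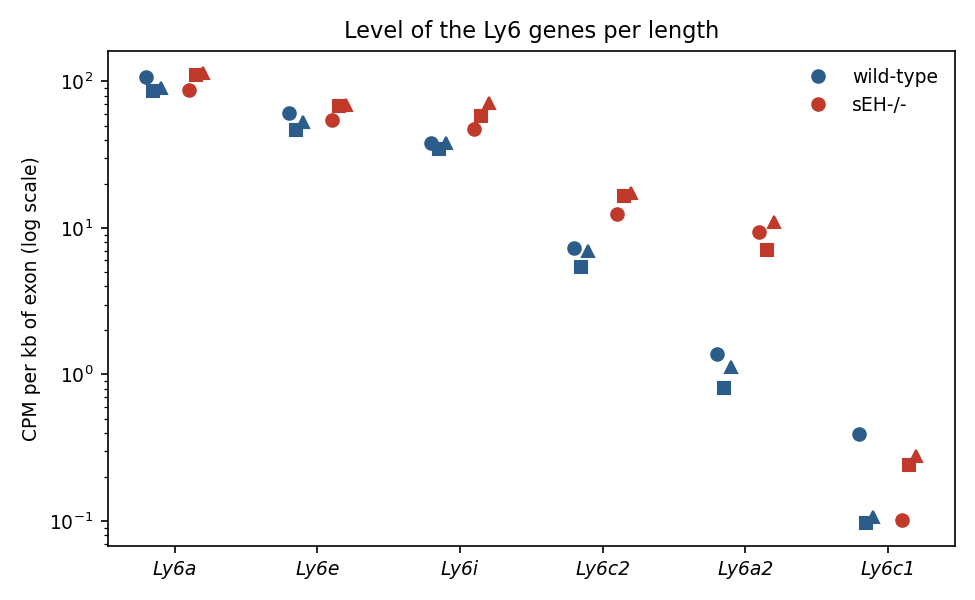
CPM per kilobase of exon (y axis, log scale) of each Ly6 gene (x axis) in the 3 wild-type (blue) and 3 sEH-/- (red) libraries, with circles, squares and triangles for replicates 1, 2 and 3. The wild-type means fall from 94.3 for *Ly6a* to 0.199 for *Ly6c1*, and the red points lie clear of the blue ones for *Ly6i*, *Ly6c2* and *Ly6a2*.

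Of the monocyte antigen genes, *Ly6c2* was the one that could be measured. Its counts were 200, 226 and 206 for sEH-/- against 91, 91 and 107 for wild-type libraries, or 34.2, 45.5 and 47.7 CPM (42.5 ± 7.27 SD, n = 3) against 19.97, 14.7 and 19.1 CPM (18.0 ± 2.81 SD, n = 3). Every sEH-/- library was higher than every wild-type library, and the lowest of them was 1.71-fold above the highest wild-type one. The log2 fold change was 1.24 (SE 0.17), a 2.37-fold difference.

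*Ly6c1*, which encodes the same antigen, had 1, 2 and 2 counts in sEH-/- against 3, 1 and 1 in wild-type libraries. The mean of 1.67 counts was under the filter of more than 5, and the gene was not tested. Scaled for library size, the summed ratio of 1.08 had an exact 95% interval from 0.248 to 4.68, which covers counting error only, so that a difference such as that of *Ly6c2* was not detectable at this depth. *Ly6c1* made up between 0.498% and 3.19% of the counts of both genes in the 6 libraries. With the counts of both summed, the log2 fold change was 1.23 (SE 0.17), close to that of *Ly6c2* alone.

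The pseudogene *Ly6a2* had the largest fold difference of the family. Its counts were 44, 28 and 38 for sEH-/- against 5, 4 and 5 for wild-type libraries, or 7.51, 5.64 and 8.80 CPM (7.32 ± 1.59 SD, n = 3) against 1.10, 0.648 and 0.895 CPM (0.880 ± 0.225 SD, n = 3). The groups did not overlap. The log2 fold change was 3.05 (SE 0.35), and the ratio of summed counts of 8.47 had a counting interval from 4.84 to 16.0. The wild-type level rests on 14 counts in all. *Ly6a2* shared 4.35% of its 50-base stretches with *Gm5960*, which is not one of the members, 2.49% with *Ly6a* and 2.24% with *Ly6i*.

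The namesake of *Ly6a2*, *Ly6a*, had 618, 658 and 592 counts in sEH-/- against 591, 636 and 604 in wild-type libraries. Its levels of 106, 133 and 137 CPM (125 ± 17.0 SD, n = 3) overlapped those of 130, 103 and 108 CPM (114 ± 14.2 SD, n = 3), with a log2 fold change of 0.14 (SE 0.11). *Ly6a2* accordingly took 6.65%, 4.08% and 6.03% of the counts of both genes in sEH-/- against 0.839%, 0.625% and 0.821% in wild-type libraries. A log2 fold change of 0.21 (SE 0.11) was obtained when *Ly6a* and *Ly6a2* were summed.

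For *Ly6i* there were 322, 334 and 356 counts in sEH-/- against 200, 248 and 246 in wild-type libraries. The values of 55.0, 67.3 and 82.4 CPM (68.2 ± 13.7 SD, n = 3) for sEH-/- were each above the wild-type values of 43.9, 40.2 and 44.0 CPM (42.7 ± 2.18 SD, n = 3). The sEH-/- libraries were spread more widely, with a coefficient of variation of 20.1% against 5.12%. The log2 fold change was 0.67 (SE 0.14), a 1.59-fold difference and thus close to the 1.5-fold that a call required.

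*Ly6e* had the highest counts of the family, with 1215, 1273 and 1135 in sEH-/- against 1043, 1089 and 1113 in wild-type libraries. The corresponding levels were 207, 256 and 263 CPM (242 ± 30.2 SD, n = 3) and 229, 176 and 199 CPM (201 ± 26.3 SD, n = 3). The raw counts of the genotypes did not overlap, but the normalized levels did, because sEH-/- replicate 1 was below wild-type replicate 1. The log2 fold change was 0.27 (SE 0.11).

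**Figure D2:**
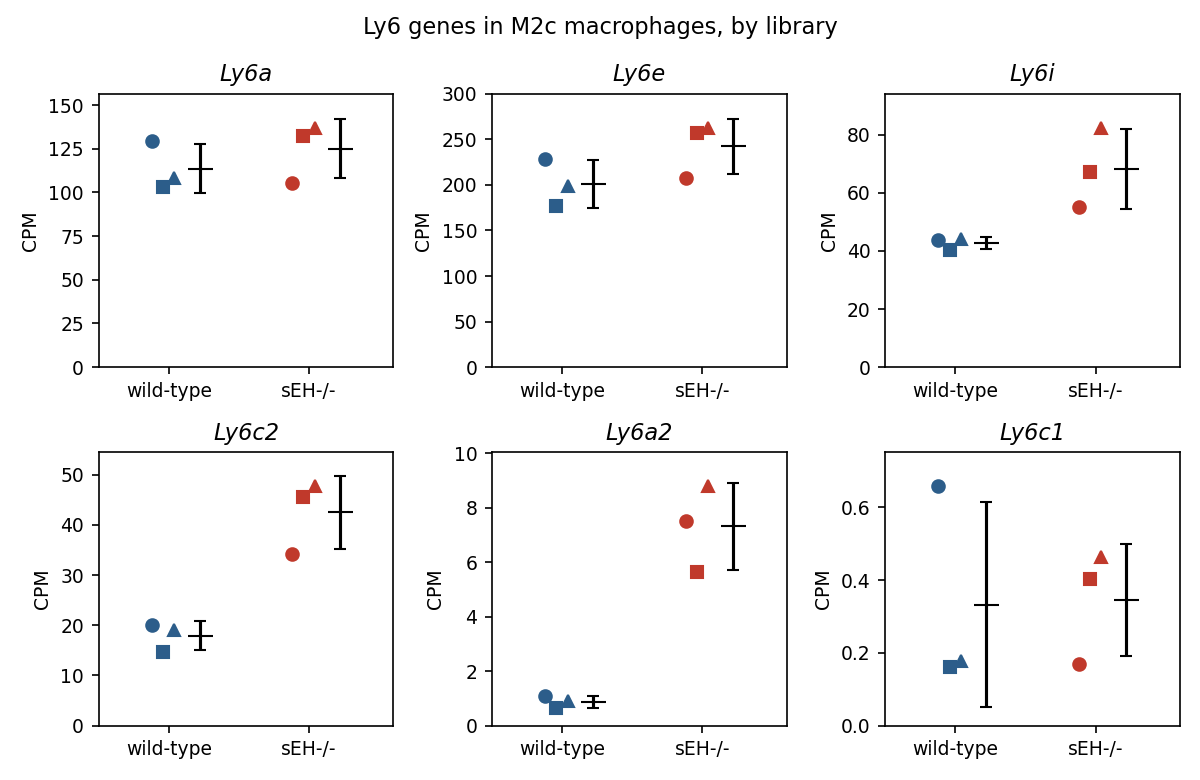
CPM (y axes, each from 0) of the 6 Ly6 genes in wild-type (blue) and sEH-/- (red) macrophages, 1 point per library with circles, squares and triangles for replicates 1, 2 and 3. Black bars give the mean ± SD of 3 libraries. The genotypes are separated for *Ly6i*, *Ly6c2* and *Ly6a2* and overlap for *Ly6a*, *Ly6e* and *Ly6c1*.

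A gene was called when it differed by more than 1.5-fold at an adjusted p below 0.05 (edgeR, quasi-likelihood). By these criteria 3 of the 5 tested members, *Ly6a2*, *Ly6c2* and *Ly6i*, were called higher and none lower. Among all 13785 tested genes 2.61% were called, 1.51% higher and 1.1% lower, and nothing is read from the comparison because the members were picked on this contrast. The same 3 genes were those whose libraries did not overlap, which held for 26.3% of tested genes in either direction and 11.8% in the higher one. All 5 tested members had a log2 fold change above 0, as did 49.8% of all tested genes, for which the median was -0.00085. The summed level of the 6 genes was 410, 508 and 539 CPM in sEH-/- against 424, 335 and 371 CPM in wild-type libraries, with overlap. *Ly6e* supplied between 48.7% and 54.0% of it in every library.

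Duplicate reads had been removed, which limits how many reads a short, abundant transcript can keep. *Ly6a* carried 0.51, *Ly6e* 0.30 and *Ly6i* 0.25 counts per exonic base on average, where the most abundant gene of the matrix, *Ctss*, carried 0.97. Between the lowest and the highest library, *Ly6a* counts differed by 1.11-fold and *Ly6e* counts by 1.22-fold, against 1.39-fold for the library totals. Within each genotype the CPM of *Ly6a*, *Ly6e* and *Ly6c2*, and of *Ly6c1* with its 1 to 3 counts, ran in the reverse order of the totals, as did those of 6.99% of all tested genes and 36.6% of the 1521 with more than 0.2 counts per exonic base. The CPM of *Ly6i* did so in the sEH-/- libraries only. Differences in *Ly6a*, *Ly6e*, *Ly6i* and *Ly6c2* may be underestimated because of the removed duplicates. Corrected for a ceiling of 1 count per base of the longest coding transcript, the log2 fold changes were 0.18 (SE 0.12) for *Ly6a*, 0.35 (SE 0.12) for *Ly6e* and 0.77 (SE 0.15) for *Ly6i*. With the library total as a covariate they were 0.058 (SE 0.066), 0.19 (SE 0.058) and 0.57 (SE 0.10). *Ly6c2* carried 0.187 counts per base of its longest coding transcript. Its log2 fold change was 1.38 (SE 0.18) with the same ceiling correction and 1.14 (SE 0.12) with the covariate.

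The calls of the members depended on single libraries, that of *Ly6i* on several and those of *Ly6a2* and *Ly6c2* on wild-type replicate 3. With one library left out at a time, the log2 fold change ranged from 2.85 to 3.22 for *Ly6a2*, from 1.11 to 1.39 for *Ly6c2* and from 0.53 to 0.81 for *Ly6i*. Without wild-type replicate 3, none of the members was called, in a fit that called 6 genes in all. *Ly6i* was also not called without sEH-/- replicate 2 or 3, without wild-type replicate 2, or with the library total as a covariate (0.57, SE 0.10). The called genes did not overlap between the groups, so that their kept direction follows from how they were picked.

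**Figure D3:**
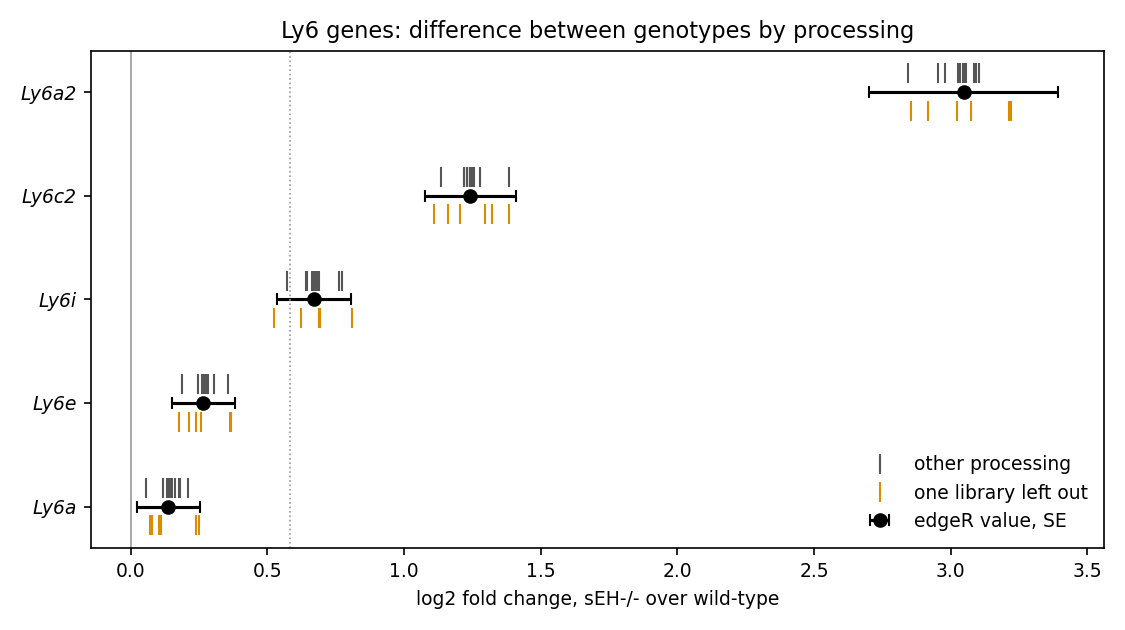
Log2 fold change (x axis, sEH-/- over wild-type) of the 5 tested Ly6 genes. Black points and bars give the edgeR value ± SE, grey ticks other ways of processing and orange ticks fits with one library left out, and the dotted line marks a 1.5-fold difference. *Ly6a2* and *Ly6c2* stay to the right of the line, *Ly6i* lies on both sides of it from 0.53 to 0.81, and *Ly6e* and *Ly6a* stay to the left.

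Other genes of the same superfamily were compared, to see how far the pattern extended beyond the 6 members. Of 38 further genes with a Ly6/uPAR domain, 12 matched a row and 5 had enough counts to be tested. None of the 5 was called by edgeR, DESeq2 or limma-voom, 2 had an unadjusted p below 0.05 in edgeR, and their median log2 fold change was -0.015. *Ly6m* (chromosome 15, 74876987 to 74897021), a neighbour of *Ly6e*, had 19, 24 and 24 counts in sEH-/- against 28, 47 and 41 in wild-type libraries. Its levels of 4.54 ± 1.18 and 7.03 ± 0.78 CPM (SD, n = 3 each) were not different past the threshold (log2 fold change -0.65 with an SE of 0.27 and an edgeR adjusted p = 0.17), although the libraries did not overlap. *Plaur*, the urokinase receptor, was at 132 ± 12.5 and 134 ± 3.17 CPM (log2 fold change -0.015, SE 0.078). *Cd59a*, an inhibitor of the complement attack complex, had 22.6 ± 3.33 and 16.4 ± 0.612 CPM and did not pass the test (log2 fold change 0.45 with an SE of 0.15, edgeR adjusted p = 0.11). *Lynx1*, a modulator of nicotinic receptors, and *Cd59b* had log2 fold changes of -0.12 (SE 0.31) and 0.10 (SE 0.40). *Ly6g5b*, *Ly6g6d* and *Ly6g6e*, which lie on chromosome 17, had a mean of 1.17, 4.83 and 1.83 counts and were not tested.

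The machinery that builds the GPI anchor, on which Ly6 proteins depend, was not called in either direction. Of 28 tested genes for synthesis and remodelling, 14 were above and 14 below 0, with a median log2 fold change of -0.0048. At an unadjusted p below 0.05 there were 9 genes, or 6 higher and 3 lower, where 23.4% of all tested genes had such a p. DESeq2 called 1 gene and limma-voom 0. The gene called by DESeq2 was *Pigh*, a subunit of the enzyme that starts the anchor, named after its values were seen (log2 fold change 0.63 with an SE of 0.17, adjusted p = 0.060 by edgeR and 0.027 by DESeq2). Of 19 tested other GPI-anchored proteins, 1 was called higher and 2 lower. The list had held 23 tested genes, from which *Tnfrsf10b*, *Fcgr4*, *H60b* and *Ulbp1* were left out after their values were seen, because their proteins are not, or not surely, GPI-anchored. Of these, *Tnfrsf10b*, a transmembrane death receptor, was called lower (log2 fold change -1.33, SE 0.26). *Nt5e*, the ecto-enzyme CD73 that makes adenosine, was higher, with 57.8 ± 23.1 against 24.2 ± 3.91 CPM (log2 fold change 1.27 with an SE of 0.25, edgeR adjusted p = 0.027). The ephrin *Efna1* and the Nogo receptor *Rtn4r* were lower, with log2 fold changes of -1.30 (SE 0.29) and -1.48 (SE 0.35). All 4 calls, that of *Tnfrsf10b* included, were lost when either wild-type replicate 2 or 3 was left out, that of *Tnfrsf10b* in 2 further alternatives, that of *Rtn4r* in 5 and that of *Efna1* in 6.

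Interferon signalling was examined next, because several Ly6 genes respond to interferon. None of the 20 tested receptors, kinases, transcription factors and feedback inhibitors was called by edgeR, DESeq2 or limma-voom, and 7 had an unadjusted p below 0.05 in edgeR, all 7 higher in sEH-/- cells. The median log2 fold change of the list was 0.16, with 17 genes above and 3 below 0. *Irf9*, *Irf7* and *Irf1* had log2 fold changes of 0.16 (SE 0.080), 0.18 (SE 0.11) and 0.090 (SE 0.095). Of 34 tested interferon-stimulated genes, 31 had a log2 fold change above 0 and edgeR called 3 higher, with a list median of 0.24. DESeq2 called 4 and limma-voom 2. In edgeR 18 had an unadjusted p below 0.05, 16 of them higher, where 23.4% of all tested genes had such a p. The genes called by edgeR were the antiviral genes *Oas2* (0.99, SE 0.20, edgeR adjusted p = 0.030) and *Cmpk2* (0.97, SE 0.21, edgeR adjusted p = 0.035) and the chemokine *Cxcl10* (3.78, SE 0.62, edgeR adjusted p = 0.018). All 3 lost their call without wild-type replicate 2 or 3, *Cmpk2* and *Oas2* also without sEH-/- replicate 2 and with the library total as a covariate, *Cmpk2* without sEH-/- replicate 1 and *Cxcl10* with limma-voom.

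**Figure D4:**
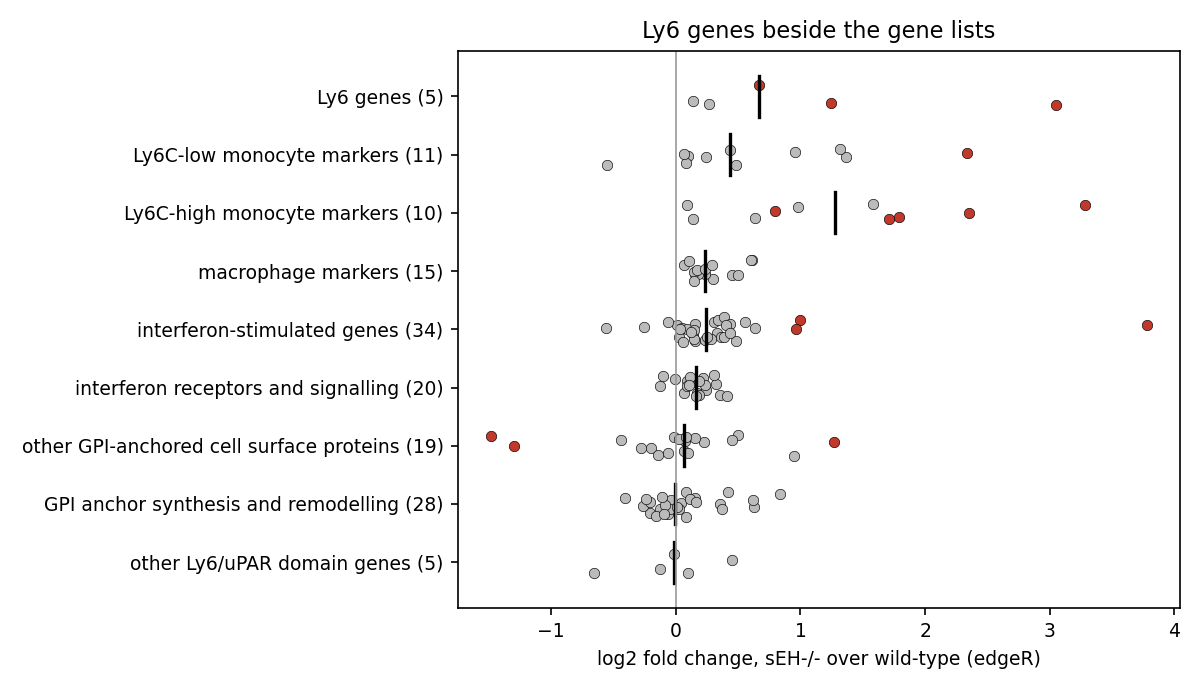
Log2 fold change (x axis, edgeR, sEH-/- over wild-type) of every tested gene of the Ly6 family and of 8 gene lists (rows, number tested in brackets), with called genes in red, other genes in grey and the list median as a black line. The medians are 1.28 for Ly6C-high monocyte markers, 0.44 for Ly6C-low monocyte markers, 0.24 for macrophage markers and interferon-stimulated genes, and near 0 for the GPI and other Ly6/uPAR lists (4 genes left out of the other GPI-anchored proteins, as in the text).

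*Ly6c2* is best known as a marker of Ly6C-high monocytes. The macrophages were grown from bone marrow monocytes, for which the methods name no Ly6C status. Markers of Ly6C-high monocytes moved with *Ly6c2*. All 10 tested genes of a list of 12, chosen with earlier results of these data known, had a log2 fold change above 0. Their median was 1.28 and 5 were called higher by edgeR, while *Cd177* was under the filter. DESeq2 called 7 and limma-voom 4, and 8 had an unadjusted p below 0.05 in edgeR, all 8 higher. *Fn1*, fibronectin, had 262 ± 84.0 against 80.0 ± 13.2 CPM (log2 fold change 1.71 with an SE of 0.22, edgeR adjusted p = 0.0087). *Hp*, haptoglobin, had 68.5 ± 19.6 against 19.9 ± 3.62 CPM (1.79, SE 0.21, edgeR adjusted p = 0.0058). *Plac8*, a small protein of myeloid progenitors and monocytes, and *Gda*, guanine deaminase, differed by 2.35 (SE 0.45) and 0.79 (SE 0.18), and *F13a1*, named to complete the count, by 3.28 (SE 0.79). The call of *F13a1* was lost with limma-voom, with the library total as a covariate, when any one wild-type replicate was left out, and when sEH-/- replicate 2 was left out, where the difference was 1.94. *Ccr2*, the chemokine receptor that defines these monocytes, had 1.54 against 0.533 CPM, was just above the filter with a mean of 5.17 counts, and was not called (1.58, SE 0.57, edgeR adjusted p = 0.13), except when wild-type replicate 1 was left out (2.48, edgeR adjusted p = 0.041). Without wild-type replicate 3, *Fn1*, *Hp*, *Plac8* and *Gda* were not called (adjusted p of up to 0.20 over all alternatives of these 4 genes), and *Plac8* and *Gda* also not without wild-type replicate 2. *Gda* was not called either without sEH-/- replicate 2 or with the library total as a covariate. The summed level of the list was between 726 and 1014 CPM in the sEH-/- and between 502 and 637 CPM in the wild-type libraries. Their part in the *Ly6c2* result was not tested.

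The other cell type lists had a lower median log2 fold change or could not be measured. Of 11 tested Ly6C-low monocyte markers, the fractalkine receptor *Cx3cr1* was the gene called by edgeR (2.34, SE 0.37, edgeR adjusted p = 0.017, not called without wild-type replicate 2 or 3). DESeq2 called 2 and limma-voom 1, and 7 had an unadjusted p below 0.05 in edgeR, 6 of them higher. The sum of the list was 661 to 847 CPM in sEH-/- and 562 to 704 CPM in wild-type libraries. All 15 macrophage markers had a log2 fold change above 0 (median 0.24, none called by edgeR or limma-voom and 1 by DESeq2, 6 with an unadjusted p below 0.05), with sums of 2939.6 to 3675 and 2611 to 3305 CPM. Neutrophil markers summed to between 72.6 and 117 CPM in sEH-/- and between 53.8 and 56.7 CPM in wild-type libraries, without overlap. Of the 3 tested, 2 were above and 1 below 0, with a median log2 fold change of 0.54. None was called by edgeR or limma-voom (1 by DESeq2, 3 with an unadjusted p below 0.05). *S100a9*, *Elane*, *Camp*, *Ltf*, *Ngp* and *Cxcr2*, which define neutrophils and their precursors, were under the filter. Of the stem and progenitor markers, which matter for Sca-1, *Kit* and *Cd34* were under the filter, and the 3 tested genes were not called by any of the 3 tools, with 0 at an unadjusted p below 0.05. The part of these cells in the Ly6 values was not tested.

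Finally, the genes whose pattern over the 6 libraries was most like that of the family were sought among the 10273 genes whose mean count reached 50. Likeness was the Pearson correlation with the mean of the 5 tested members' standardised log2 CPM over the 6 libraries, given as a description. *Ly6c1* was not part of this mean. Differences in depth and genotype between these libraries were the same for every gene compared. The 5 closest were *Slc25a37*, which imports iron into mitochondria, *Ss18*, a subunit of a chromatin remodelling complex, the formyl peptide receptor *Fpr2*, the RNA-binding protein *Ewsr1* and the membrane raft protein *Flot1*, with r between 0.989 and 0.997. *Fpr2* had 77.9, 98.3 and 108.8 CPM in sEH-/- against 68.9, 45.0 and 54.6 CPM in wild-type libraries and was called (log2 fold change 0.76 with an SE of 0.16, edgeR adjusted p = 0.031), a call that was lost when replicate 2 of either genotype or wild-type replicate 3 was left out. *Slc25a37* had 364, 418 and 436 against 337, 292 and 314 CPM and was not called (0.37, SE 0.093, edgeR adjusted p = 0.054). *Flot1* (0.27, SE 0.096), *Ewsr1* (0.19, SE 0.077) and *Ss18* (0.11, SE 0.067) were not called either. For each of these 5 genes, replicate 1 was the lowest of the sEH-/- libraries and the highest of the wild-type libraries. The same held for the mean of the tested members. Replicate 1 had the most counts of the sEH-/- libraries and the fewest of the wild-type libraries.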

How the data were processed

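Per the labels and the methods, the authors trimmed the reads with Trimmomatic 0.39, aligned them to mm10 with STAR, discarded duplicates, reads that mapped to several places and those of ribosomal or mitochondrial origin, and assigned the rest to exons by strand with featureCounts. The values deposited by the authors are raw counts per gene, without normalization. Labels and methods differ on tool versions, RNA input and library kit.

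With edgeR 4.0.16 in R 4.3.3, genotypes were compared by the quasi-likelihood test (TMM, no covariate) over the 13785 genes with a mean count above 5, with Benjamini-Hochberg adjustment. Dividing a log2 fold change by the root of its F statistic gave the SE. TMM factors lay between 0.982 and 1.03. DESeq2 1.42.0 and limma 3.58.1 (voom) were alternatives. Lengths and coordinates came from GENCODE M21, in which 19286 of 19309 identifiers were found. Read length is not given in the sources used here.

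Named genes were the members, *Ephx2*, other Ly6/uPAR genes, *Irf1*, *Irf7*, *Irf9*, called genes of the fixed lists (at most 4 per list, by mean count) and the 5 genes most like the members. Some genes of the lists are counted but not reported by name here. The members and the lists were chosen with earlier results of these data known. Scripts were tested on simulated counts. No pair of libraries of one genotype differed by as little as sampling noise (chi-square per degree of freedom 2.24 to 4.89). Promoters came from RefSeq (alignment scores 1, -1 and -2 for match, mismatch and gap). Figures were drawn with matplotlib.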

Additional observations from a re-analysis of the deposited data

How the results depend on the processing

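Log2 fold changes of the 5 tested members kept their direction in every alternative run. All runs used the libraries in which the members had been picked, so that this is no independent support. The number of genes called was 360, and 553 with no fold change threshold. It was 171 with the log2 of the library total as a covariate, which was chosen after seeing the data, as were the ceiling corrections and the transcript length. It ranged from 6 to 625 with one library left out (518, 96 and 570 without sEH-/- replicates 1, 2 and 3, and 625, 25 and 6 without wild-type replicates 1, 2 and 3), and the cause was not tested. The number of members called ranged from 0 to 3 in those fits, with 0 without wild-type replicate 3, and was 2 where at least 10 counts were asked in every library, which leaves out *Ly6a2*. One GPI anchor synthesis gene was called (1 against 0) with DESeq2 and with no filter, and 0 to 1 with a library left out. Levels in wild-type cells were 116.3 CPM per kb for *Ly6a* and 7.65 for *Ly6c2* without stretches shared with other genes, and 118.9 for *Ly6a*, 0.395 for *Ly6c1*, 21.8 for *Ly6c2* and 88.3 for *Ly6e* with the longest coding transcript as length. With a library left out, log2 fold changes that were not called and near 0 turned sign for *Lynx1* (from -0.41 to 0.21), *Plaur* (0.039, 0.024 and 0.0021) and *Cd59b* (from -0.15 to 0.35).

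With the replicate number of the labels as a block, 234 genes and the same number of members, 3, were called. Libraries with the same number did not deviate together (r of -0.082, -0.26 and -0.037), and no sample correlated best with its own number. Deviations from a mean of 3 libraries are tied to each other, and the libraries differed in depth. The check therefore cannot decide whether the numbers pair the samples.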
